A study of Bos taurus with 8 samples.

Results

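Described here are 60 genes whose level in blood mononuclear cells was higher after 7 days of heat in Tharparkar cattle and lower after the same period in crossbred cattle. They were chosen from 24596 gene IDs by the values themselves. CPM (counts per 1000000) was computed from the average expected count of the 2 files of a group. A gene was kept with 5 CPM or more in its highest group and a log2 ratio of day 7 to day 0, on CPM plus 1, of at least 1 in Tharparkar and at most -1 in crossbred. Of the 24596 IDs, 9835 reached 5 CPM in a group, and 60 of these met both criteria. The rule also excludes 22 listed IDs, of which 0 met the criteria.

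The 4 groups were Tharparkar before heat (day 0), Tharparkar after heat (day 7), crossbred before heat and crossbred after heat. Tharparkar is a zebu breed of the Indian subcontinent, and the labels do not say which breeds entered the crossbred. RNA came from peripheral blood mononuclear cells, and the labels mark every sample as heat stress, day 0 included. RNA of the 5 animals of a breed was pooled for each day, so the spread between animals was not measured, and 2 files were deposited per group.

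Peripheral blood mononuclear cells are a mixture of T cells, B cells, natural killer cells and monocytes. Heat is known to activate heat shock transcription factors, which raise the genes of molecular chaperones, and prolonged heat is also known to change circulating stress hormones and the traffic of leukocytes. A level in such a mixture depends both on the number of cells of a type and on the RNA in each cell, and fewer cells of a type and less RNA per cell cannot be told apart here. The files do not pair the IDs with gene names, and 0 of the 24596 IDs, and so 0 of the 60, matched the gene table used here. The roles of these genes, the pathways they belong to and the cell types that express them are therefore not described, and markers of the labelled cell type were not checked.

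The 2 files of a group differed by less than the sampling noise and were counted as 1 sample. A median chi-square ratio of 1 is what independent reads of 1 library give, and the ratio was 0.0762 to 0.112 over the 4 groups. With the mean over genes in place of the median it was 0.192 to 0.280, also below the limit of 1.5. Each group was therefore 1 library, with 5201318 to 8571528 counts, and Tharparkar at day 7 was the shallowest. No comparison has a replicate check, no test was made, and every difference below describes these libraries. With 1 library per group, every interval below describes counting error and nothing else. Reads were not tagged with molecular identifiers, so copies of 1 molecule were not set apart and the intervals may be too narrow.

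In Tharparkar 195 genes, or 1.98% of the 9835, were higher at day 7 by at least 1 log2 unit, and the 60 were 30.8% of them. In crossbred 237 genes, or 2.41%, were lower by at least 1 unit, and the 60 were 25.3% of those. Both criteria together held for 0.610% of the genes, which is the share the rule fixes. The same rule turned round, lower in Tharparkar and higher in crossbred, took 105 genes, or 1.07%.

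**Figure D1:**
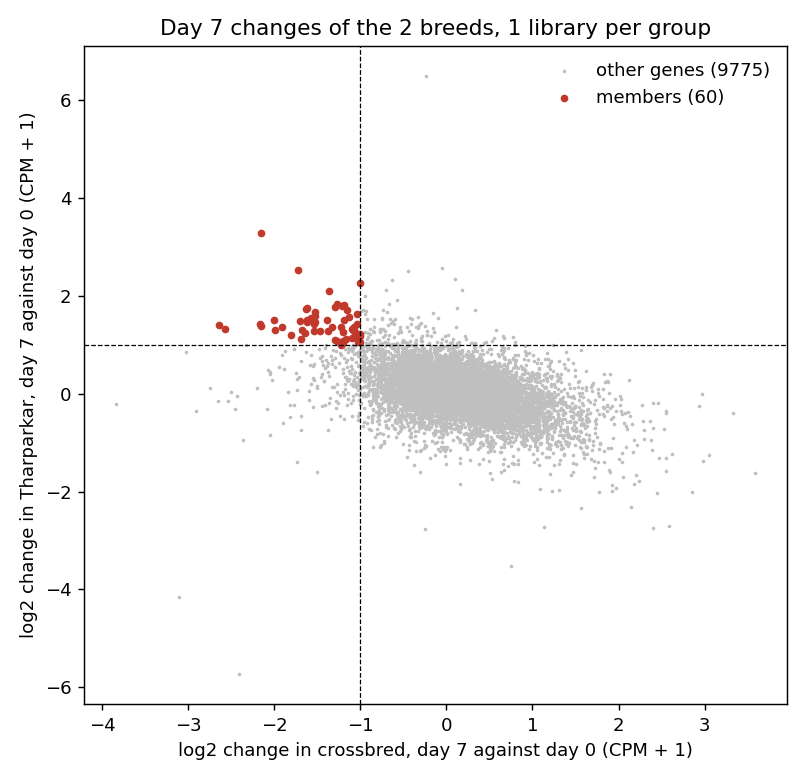
Each point is 1 of the 9835 genes at 5 CPM or more, with the log2 change from day 0 to day 7 in crossbred on the x axis and in Tharparkar on the y axis, both on CPM plus 1 with 1 library per group. The 60 red points are the genes that met the rule, and dashed lines mark its thresholds at -1 and 1. The members start at these lines with no gap from the other genes, and 9 of them reached 1.5 units in both breeds.

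The most abundant of the 60 by CPM was ENSBTAG00000010069, a gene of 3083 bases with 1 listed transcript. In Tharparkar its replicates 1 and 2 had 808 and 813 CPM at day 0, and 2266 and 2263 CPM at day 7. In crossbred they had 2364 and 2367 CPM at day 0, and 722 and 732 CPM at day 7. The gene was thus high in Tharparkar at day 7 and in crossbred at day 0, low in the other 2 libraries, and the files of high and low libraries did not overlap. The rule used these values and the 2 files of a group are 1 library, so this is a description only. Its log2 change was 1.48 in Tharparkar (95% Clopper-Pearson interval 1.44 to 1.53) and -1.70 in crossbred (-1.74 to -1.66). These intervals are on the ratio without a pseudocount, and since the gene was chosen by these values they are no test. With library scaling by TMM or DESeq2, both changes moved outside these intervals, to 1.41 or 1.42 in Tharparkar and -1.82 in crossbred. The intervals thus leave out the choice of scaling. The gene held 0.0810% of all counts in Tharparkar at day 0 and 0.226% at day 7, and 0.237% and 0.0727% in crossbred.

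The gene with the largest change in both breeds at once was ENSBTAG00000019839, which was rare. In Tharparkar its replicates 1 and 2 went from 7 and 8 counts before heat to 103 and 101 after it. In crossbred they went from 88 and 87 counts to 13 and 11. On CPM plus 1 it was the only 1 of the 60 with a change of at least 2 log2 units in both breeds. On that scale the Tharparkar change was 3.28 log2 units and the crossbred change -2.16. Without the pseudocount the log2 ratios were 4.13 (95% interval 3.01 to 5.29) and -2.75 (-3.77 to -1.89), so the pseudocount understated both changes. With a pseudocount of 5 they were 2.01 and -1.22, and with the deposited TPM plus 1 they were 2.16 and -1.36. The change in crossbred was under 2 units in both settings. Its TPM was 0.225 at day 0 and 4.46 at day 7 in Tharparkar, and 2.545 and 0.385 in crossbred. At such levels the added 1 shrinks the TPM changes by construction. At day 7 the gene was highest in Tharparkar, at 19.7 and 19.5 CPM in the 2 files, above the 10.2 CPM of both crossbred files at day 0.

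**Figure D2:**
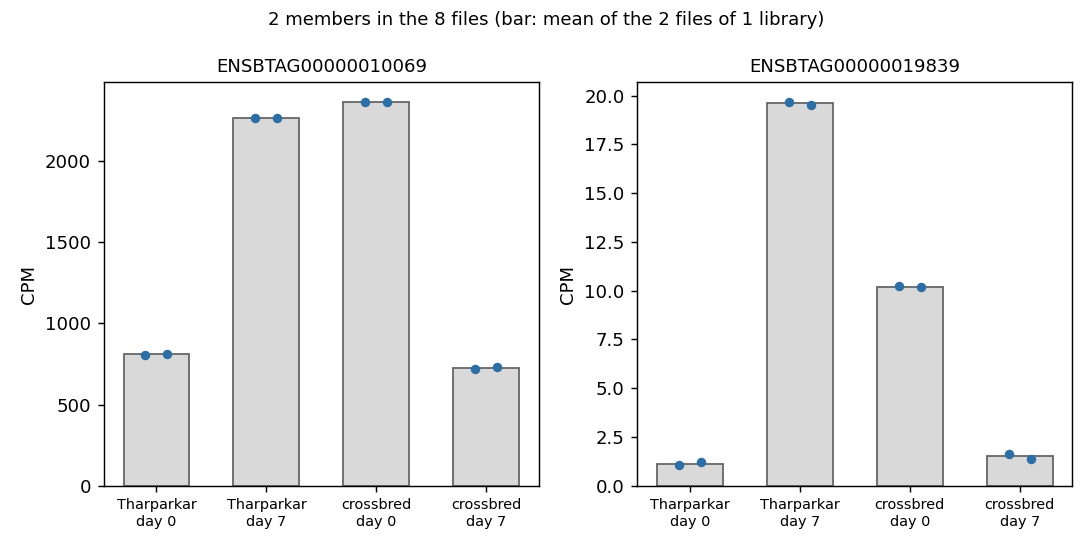
CPM of ENSBTAG00000010069 (left) and ENSBTAG00000019839 (right) in each of the 8 files. Points are the 2 files of a group, bars their mean, and both axes start at 0. The 2 files of a library lie almost on top of each other, and in both genes Tharparkar at day 7 and crossbred at day 0 stand above the other 2 libraries.

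Over all 60, the log2 change ran from 1.0006 to 3.28 in Tharparkar, with a median of 1.36, where the median over all 9835 genes was 0.05. In crossbred it ran from -2.65 to -1.0010, with a median of -1.30, against 0.11 over all genes. Both ranges start at the thresholds because the rule put them there. Most changes were modest: 4 of the 60 reached 2 log2 units in Tharparkar and 6 in crossbred, and 9 reached 1.5 units in both breeds. The change was larger in Tharparkar for 34 genes and larger in crossbred for 26. Both day 7 files lay above both day 0 files in Tharparkar for 60 of 60, as for 51.3% of all genes, and below them in crossbred for 60 of 60, as for 38.2%. Files of 1 library hold no variation between animals, and the rule used these differences.

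The threshold does not mark a gap. In Tharparkar the members nearest to it had log2 changes of 1.0006 and 1.04, and the nearest genes outside it that met the crossbred criterion had 0.9944 and 0.9943. In crossbred the nearest members had -1.0010 and -1.0036, and the nearest genes outside had -0.999 and -0.990. For the level, the members nearest the limit had 5.38 and 6.01 CPM and the nearest genes outside had 4.72 and 4.69 CPM. A further 30 genes at 5 CPM or more passed 0.9 units in both breeds without passing 1 in both.

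The levels of the 60 in the 4 libraries formed a high pair and a low pair. In CPM the median level was 8.17 in Tharparkar at day 0 and 24.8 at day 7, and 22.9 in crossbred at day 0 and 7.76 at day 7. Over all 9835 genes the medians were 25.2, 26.1, 27.1 and 30.9 CPM in the same order. In 60 of 60 genes both Tharparkar at day 7 and crossbred at day 0 stood above both other libraries, an order that 22.9% of all genes had. This order is no result beyond the rule: with changes of 1 unit or more in both breeds, it follows for any gene whose levels in Tharparkar at day 7 and crossbred at day 0 are within 1 unit of each other, as they were in 97.1% of all genes. The highest library was Tharparkar at day 7 in 35 genes (23.7% of all genes) and crossbred at day 0 in 25 (24.8%). The lowest was crossbred at day 7 in 32 genes (16.4% of all genes) and Tharparkar at day 0 in 28 (31.2%).

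Within each pair the ratios were as follows. The log2 ratio of Tharparkar at day 7 to crossbred at day 0 had a median of 0.06 over the 60, with a range of -1.32 to 1.07, and was within 1 unit in 58 genes. That of crossbred at day 7 to Tharparkar at day 0 had a median of -0.03, with a range of -0.96 to 1.03, and was within 1 unit in 59. These shares are near those over all genes, of which 97.1% and 95.4% were within 1 unit in the same pairs, so the closeness is no result about the 60.

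**Figure D3:**
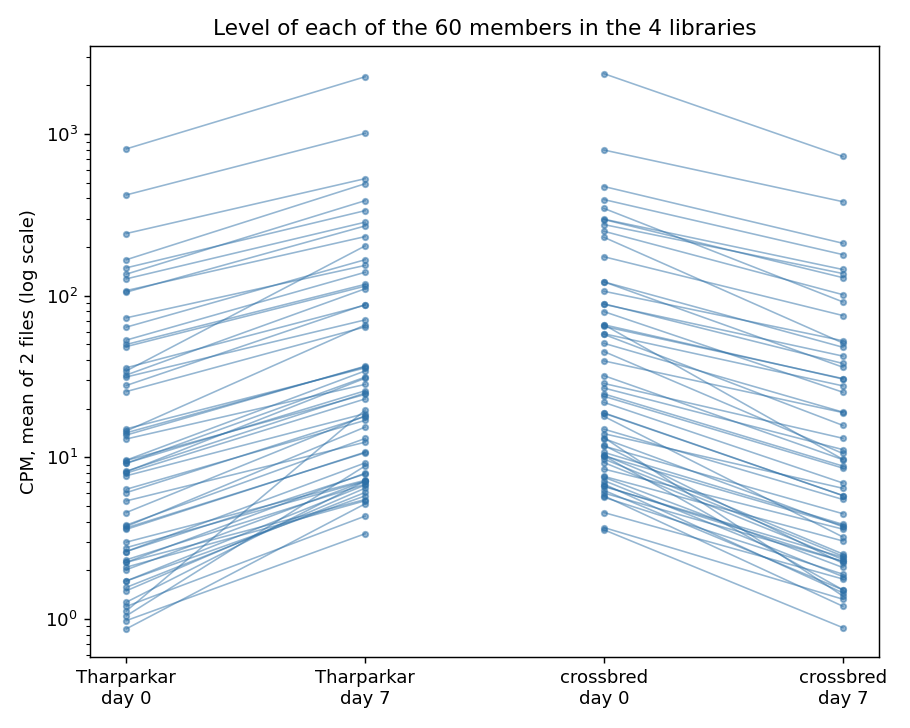
Each line joins the CPM of 1 of the 60 genes at day 0 and day 7 within a breed, on a log axis, each point being the mean of the 2 files of 1 library. Lines run upward in Tharparkar and downward in crossbred, as the rule demands; the median level goes from 8.17 to 24.8 CPM in Tharparkar and from 22.9 to 7.76 CPM in crossbred.

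The breeds were also compared at each day. These differences come from the libraries the rule used, which fixes that the log2 difference of Tharparkar to crossbred is at least 2 units larger at day 7 than at day 0, but not how it divides between the days. Where Tharparkar at day 7 and crossbred at day 0 are within 1 unit, the rule also fixes the direction of the breed difference at both days, so the directions and the shares of all genes beside them are a description only. At day 0 all 60 genes were lower in Tharparkar, by log2 differences of -2.72 to -0.74 with a median of -1.35, where the median over all genes was -0.10. The difference was -1 or less in 51 of the 60 and in 2.64% of all genes. At day 7 all 60 were higher in Tharparkar, from 0.11 to 3.04 with a median of 1.42, where the median over all genes was -0.14. It was 1 or more in 53 of the 60 and in 1.81% of all genes. Both held in 44 of the 60 and in 0.742% of all genes. By its arithmetic the rule makes each of the 60 meet at least 1 of them. In any size, lower at day 0 and higher at day 7 was found in 28.8% of all genes.

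The gene with the smallest breed difference at day 7 had 3.36 CPM in Tharparkar and 3.04 CPM in crossbred on that day. Before heat it had 0.976 CPM in Tharparkar and 7.62 CPM in crossbred, so the breeds differed in it mainly at day 0. Its expected counts were whole numbers only in the Tharparkar files of day 7, at 15 and 20 counts, and not in the other 6 files, so its values are uncertain.

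**Figure D4:**
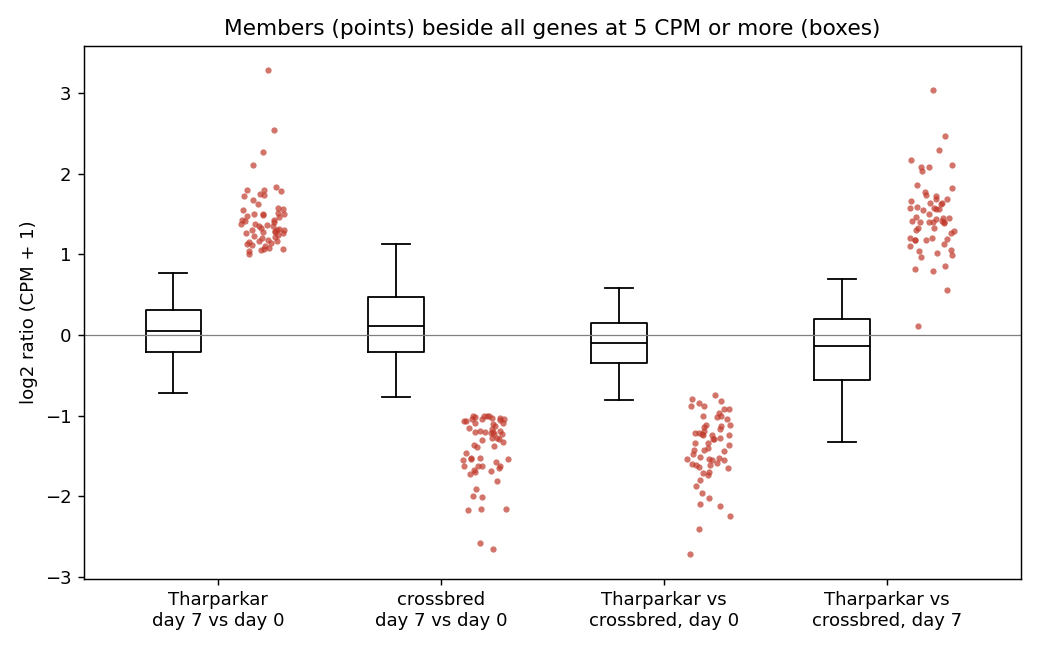
Log2 ratios on CPM plus 1 in 4 comparisons, 1 library per group. Red points are the 60 genes, with random sideways shifts; boxes show the quartiles and median of all 9835 genes with whiskers from the 5th to the 95th percentile. The points lie on opposite sides of 0 in the breed comparisons at day 0 and day 7, with medians of -1.35 and 1.42.

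The sum of the genes has the same high and low pairs because its members were chosen so, and its shares are given as a description. Together the 60 genes took 0.295% of all counts in Tharparkar at day 0 (95% Wilson interval 0.291 to 0.299) and 0.780% at day 7 (0.772 to 0.787). In crossbred they took 0.740% at day 0 (0.734 to 0.745) and 0.278% at day 7 (0.274 to 0.281). ENSBTAG00000010069 weighed on these sums, and without it the shares were 0.214% and 0.553% in Tharparkar and 0.503% and 0.205% in crossbred.

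The genes spanned a wide range of levels. By TPM, which allows for length and so compares genes, the level in the highest group ran from 1.45 to 885 with a median of 25.4, where the median over all 9835 genes was 20.9. In CPM, the measure the rule used, these medians were 24.8 for the 60 and 35.0 for all genes, so the direction depends on the measure. By CPM, 16 of the 60 were between 5 and 10 in their highest group, 28 between 10 and 100, 14 between 100 and 1000, and 2 above 1000. These were 1.15%, 0.438%, 0.747% and 1.10% of all genes in those bands. The median change differed little between bands, from 1.29 to 1.38 in Tharparkar and from -1.38 to -1.19 in crossbred.

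Depth set the width of the counting interval of each change, which leaves out the spread between animals and between libraries. In the lowest group 20 of the 60 genes had fewer than 20 counts. The 95% counting interval of the change in Tharparkar had a median width of 2.06 log2 units in the band from 5 CPM, 0.937 in that from 10, 0.299 in that from 100, and 0.113 above 1000. In crossbred the widths were 1.75, 0.861, 0.257 and 0.104. On the ratio without a pseudocount, the counting interval reached to the other side of the threshold of 1 unit in 26 of the 60 genes in Tharparkar and in 24 in crossbred. It lay past the threshold in both breeds in 21.

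Properties that the rule did not use were described without a test. The median length was 1876 bases, with a range of 375 to 5841, against 1965 over all genes. A single transcript was listed for 51 of the 60, or 85.0%, against 90.2% of all genes. Expected counts, deposited with 2 decimals, were exactly whole in all 8 files for 53, or 88.3%, against 89.2%. The 7 others had fractional counts in some file, as estimation gives where reads fit more than 1 gene. Which genes those are was not examined, and their values are uncertain. One of these 7 had the largest change in crossbred, -2.65, where its replicates 1 and 2 went from 630 and 503 counts to 56.4 and 97.7. The next, at -2.58, had whole counts, which went from 114 and 113 to 11 in both files. Among the 53 with whole counts, the files of a group differed by at most 0.28 log2 units, and among all 60 by at most 0.72.

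The 105 genes of the turned rule run the other way by its construction, within the same 4 libraries. Their median log2 difference of Tharparkar to crossbred was 0.92 at day 0 and -1.99 at day 7, against -1.35 and 1.42 for the 60. In 104 of the 105, Tharparkar at day 7 and crossbred at day 0 both stood below the other 2 libraries, an order that 22.6% of all genes had and that the turned rule nearly fixes in the same way. Tharparkar at day 7 and crossbred at day 0 were within 1 log2 unit in 94 of the 105, against 58 of the 60 and 97.1% of all genes. Crossbred at day 7 and Tharparkar at day 0 were within 1 unit in 77 of the 105, against 59 of the 60 and 95.4% of all genes. These contrasts between the gene sets were not tested.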

How the data were processed

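Gene tables of 8 files (4 groups, 2 files each) were used. Bowtie2 and RSEM are named in the submitters' processing notes. Their versions, the genome build and the annotation are not given in the sources used here. Per the file headers, the deposited values are expected counts (estimated reads per gene), TPM, FPKM, and gene lengths in bases. The deposited TPM and FPKM were scaled by the authors and served for levels between genes and for alternatives.

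A chi-square ratio over genes with at least 20 counts, with a limit of 1.5, decided that the 2 files of a group count as 1 library. Expected counts were averaged without rounding, divided by the total, and compared as log2 of CPM plus a pseudocount of 1. No between-group test was made. Intervals (Clopper-Pearson, Wilson; scipy 1.17.1) are at 95%, on counts rounded to whole numbers. Scaling factors for alternatives came from edgeR 4.0.16 and DESeq2 1.42.0. The steps were tested on simulated data.

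The genes and lists were chosen with earlier results of these data known. The 43 gene lists hold symbols, 0 of which occur in the tables, so none has a result. The rule for named genes asked for symbols. With none, 2 IDs are printed: the highest CPM, and the largest value of the smaller of both changes among genes with whole counts and at least 20 counts in the highest group. The sequences of these genes are not shown, since no file used here pairs them with the IDs.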

Additional observations from a re-analysis of the deposited data

Results flagged for a closer look

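The log2 changes of the 60 genes ran in opposite directions in the breeds, with a median of 1.36 in Tharparkar and -1.30 in crossbred. The rule chose the genes for this, and the difference between the breeds was not tested.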

How the results depend on the processing

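Under the scalings, the number of genes meeting the rule was 68 with TMM factors (57 of the 60 among them), 70 with DESeq2 size factors (59), 54 with the deposited TPM (50) and 50 with the deposited FPKM (48). With TMM factors the median log2 ratio of all 9835 genes moved from 0.11 to -0.0026 for the crossbred change, from -0.10 to 0.01 for Tharparkar against crossbred before heat and from -0.14 to 0.01 after it, so changes of the 60 are relative to such shifts. A pseudocount of 0.5 gave 68 genes (60). A pseudocount of 5 gave 27 genes and moved the medians of the 60 to 1.09 for the Tharparkar change, -1.01 for the crossbred change, -1.01 for Tharparkar against crossbred before heat and 1.09 after it; a larger pseudocount shrinks the changes of rare genes by construction. A minimum of 10 CPM gave 44 genes, and 1 CPM or none gave 75. Thinning all libraries to the smallest total gave 58 (51). Leaving out 1 file at a time gave 56 to 63 genes, and medians of 1.35 to 1.37 in Tharparkar, -1.32 to -1.29 in crossbred, -1.37 to -1.33 at day 0 and 1.42 to 1.44 at day 7. The 2 files of a group differed by less than the sampling noise, so these narrow ranges say nothing about stability. For ENSBTAG00000010069 the log2 changes were 1.41 and -1.82 with TMM factors and 1.42 and -1.82 with DESeq2 size factors, outside its counting intervals. For ENSBTAG00000019839 they were 2.16 and -1.36 with TPM plus 1, and 2.01 and -1.22 with a pseudocount of 5. Because the rule chose genes past 1 unit in both breeds, that the medians given here kept their signs says nothing about stability. The signs of single genes under each alternative were not listed. No paired analysis was possible because both files of a group were treated as 1 library and no result comes from a test. The depth limits the rarest genes, and with 1 pool per group, the pool and its group cannot be told apart.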
